A study of Mus musculus with 44 samples.

Results

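The regions described here are the places, away from the listed AsiSI motifs, where the bait on chromosome 2 was joined to a promoter of another chromosome. In some of these joins the bait part of the read ran past the break, as described below. A junction was counted when its prey lay on chromosome 1, 3 to 19, X or Y, more than 10 kb from every listed AsiSI motif and within 3 kb of an annotated transcription start. Junctions in 4 windows of chromosomes 9, 12 and 14 and within 500 bp of 4 positions on chromosomes 1, 9, 10 and 13, at Ralb, Sc5d, Txnrd1 and Jmy, were left out by the rule. Of 148726 deposited junctions, 29536 were distal interchromosomal prey, and 5977 of these lay at promoters. They are called promoter prey below, and the other 23559 are called other distal prey.

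High-throughput genome-wide translocation sequencing (HTGTS) was run on 32 libraries of mouse embryonic fibroblasts, labelled as C57BL/6 and WT in genotype. In 26 libraries the cells carried AsiSI fused to an estrogen receptor fragment, were given 3 µg/ml doxycycline for 24 h and received 1 µg/ml 4OHT for the last 6 h, so that the enzyme cut the bait and many other sites. These comprised 6 libraries with CK-666 (100 µM, an Arp2/3 inhibitor) and 6 with its vehicle DMSO, 3 with NU7441 (10 µM, a DNA-PK inhibitor) and 3 with DMSO, 2 with wiskostatin (3 µM, an inhibitor of the Arp2/3 activator N-WASP) and 2 with DMSO, and 2 with actin R62D-NLS (a nuclear actin that does not polymerize) and 2 with empty vector. In the other 6 libraries, cells without AsiSI received Cas9 and a guide to the bait site 48 h before lysis (their labels also name 4OHT), 3 with CK-666 and 3 with DMSO. The 13 untreated AsiSI libraries (DMSO or empty vector) are called AsiSI controls.

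A promoter is the stretch around a transcription start where the transcription machinery assembles. In mammals many promoters of widely used genes lie in CpG islands and are open in most cells, whereas promoters poor in CpG are mostly used in few tissues. HTGTS reads from a primer beside a fixed break into whatever sequence that end was joined to, so a junction records a join and not how the prey end arose. The method counts joins in DNA and holds no measure of transcription, so the labelled cell type could not be checked against markers.

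Promoter prey were few in each library. Libraries held between 362 and 18428 junctions in all and between 10 and 571 promoter prey, with a median of 130. The AsiSI libraries gave 3510 in total and the Cas9 libraries 2467. Intervals below are 95% Wilson intervals for shares and exact Poisson intervals for densities. Both cover counting error only. At the edges of the rule, 106 promoter prey lay in the last 100 bp inside the limit of 3 kb and 137 other distal prey in the first 100 bp beyond it. Likewise, 38 promoter prey were 10 to 11 kb from a listed motif, and 33 promoter junctions left out by the rule were 9 to 10 kb from one.

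The bait stretch and the prey stretches that recurred most are shown first, because much of what follows turns on them. All are reference sequence of GRCm38 in the direction of the read, 5′ to 3′. The bait at chr2:13271306-13271335 (plus strand), with the AsiSI motif in capitals, is
bait: accctgtcccaGCGATCGCgcaggcgcaca
Prey made of telomeric repeats, mapped to arrays inside chromosomes, gave most of the promoters with the highest numbers of prey. Whether these reads came from the arrays or from other telomeric repeats of the genome was not tested. The next lines show, with whole telomeric units in capitals, the commonest prey stretch near Gm47882 (chr13:13860980-13861009, minus strand) and Gm38064 (chr1:188246350-188246379, plus).
Gm47882: ccataaCCCTAACCCTAAccccaaccccaa
Gm38064: CCCTAAccctgaCCCTAACCCTAACCCTAA
A second kind were runs of pyrimidines or purines. The commonest stretch near Gm24539 (chr13:62137122-62137151, minus) is shown with pyrimidines in capitals.
Gm24539: TTCTTTTTCTTTTTTTTTCTTCTTTTTTCT
Another kind were single positions joined in many libraries through the same overlap, a stretch that ends the bait part of the read and also begins the prey part. For each of them the bait side and the prey side are given, with the overlap in capitals. The prey lie near Cog2 (chr8:124535679-124535708, plus; bait side chr2:13271334-13271363), Epha2 (chr4:141306380-141306409, minus; bait side chr2:13271325-13271354), Gm29202 (chr11:96005265-96005294, minus; bait side chr2:13271318-13271347) and Gm11841 (chr4:12126911-12126940, plus; bait side chr2:13271282-13271311).
Cog2 bait side: cacaaaatccggccaaccCCACGCCCCTCC
Cog2: CCACGCCCCTCCatccacgcccctccacat
Epha2 bait side: gcaggcgcacacaaaatccgGCCAACCCCA
Epha2: GCCAACCCCAgccccagaatcaacacacgg
Gm29202 bait side: cgatcgcgcaggcgcacacaaaatCCGGCC
Gm29202: CCGGCCtccctcgacgccttctcccggcgc
Gm11841 bait side: aacaggatcccgcagcaggaaCACACCCTG
Gm11841: CACACCCTGccatccagctgctgcaggccc
In each of these the overlap was identical over its whole length. For Cog2, Epha2 and Gm29202 the bait before the overlap already ran 30, 23 and 20 bp past the break, so the read held sequence from beyond the break followed by the prey. For Gm11841 it ended 19 bp before the break.

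Distal prey fell in promoters more often than the genome share in every AsiSI control library. Promoters of 3 kb on either side covered 375 Mb or 15.3% of the 2449 Mb in which distal interchromosomal prey could be counted. In the AsiSI controls the promoter share was 23.8% ± 3.12 (SD, n = 13). With DMSO in the CK-666 experiment it ran from 21.3% through a median of 23.7% to 26.9%. The controls of the NU7441 experiment gave 16.4%, 21.5% and 25.6%, those of the wiskostatin experiment 22.8% and 23.2%, and empty vector 28.5% and 26.8%. All lay above 15.3%, the lowest of them by little, since its interval ran from 13.9% to 19.3%. The mean log2 ratio to the genome share was 0.62 ± 0.20 (SD, n = 13), a fold of 1.54, higher in 13 of 13 libraries (exact sign-flip test over libraries, 2-sided, p = 0.000244, the smallest that 13 libraries allow, adjusted p = 0.00061 over 5 tests). With the windows and positions kept that the rule leaves out, the mean log2 ratio was 1.27. The genome share counts all reference bases alike and was not corrected for how well reads map. Repeat-masked sequence made up 28.6% of promoter bases and 36.7% of all eligible bases.

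With the Cas9 bait and DMSO the promoter shares were 20.3%, 14.1% and 19.4%. The mean log2 ratio to the genome share was 0.21 ± 0.29 (SD, n = 3), positive in 2 of 3 libraries, and no test was made on it. Compared with the AsiSI controls, the Cas9 share was lower by 0.41 on the log2 scale, a ratio of 0.752 (exact permutation test of 13 against 3 libraries, 2-sided, p = 0.0179, adjusted p = 0.0357 over 2 tests). This call rested on Cas9 DMSO replicate 2. In that library 149 of 348 promoter prey, or 42.8%, were telomeric, as were 62% of its other distal prey. Without it the difference was -0.25 (exact permutation test, adjusted p = 0.286), and without telomeric prey and purine or pyrimidine runs in any library it was -0.29 (adjusted p = 0.0893). The Cas9 shares then lay between 19.9% and 21.4%. Bait and sequencing run largely coincide, since all Cas9 libraries come from a single run. In this run the AsiSI cells gave 23.2% with DMSO (replicate 2 of the wiskostatin experiment, interval 20.3% to 26.4%) and 23.2% with wiskostatin, above all 6 Cas9 libraries, of which the highest had 20.6% (interval 18.8% to 22.4%). With telomeric prey, runs and joins past the break (defined below) left out, these 2 libraries gave 22.4% and 22.0% and the Cas9 libraries 18.3% to 22.8%. The overlap of the baits rested on Cas9 CK-666 replicate 2, with 22.8% after 859 of its 3343 distal prey remained. The next highest Cas9 library, DMSO replicate 1, had 21.4%, below both AsiSI libraries.

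**Figure D1:**
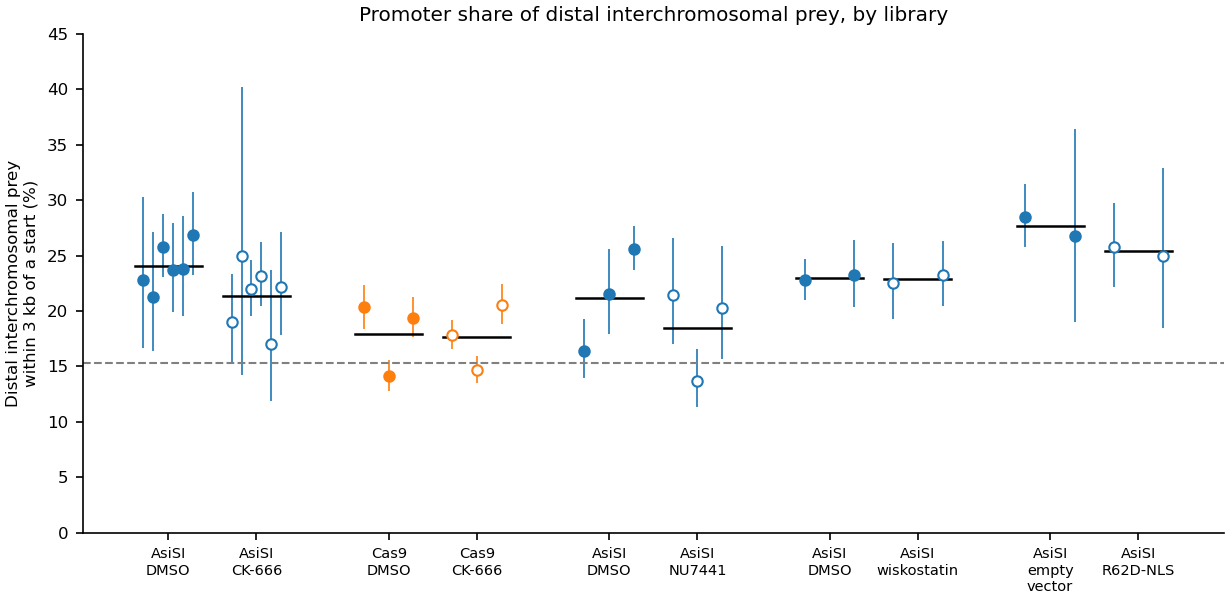
Promoter share of distal interchromosomal prey in each of the 32 libraries (percent, with 95% Wilson intervals), by group. Blue marks the AsiSI bait and orange the Cas9 bait, filled points controls and open points treated libraries, black lines group means, and the dashed line the share of eligible bases in promoters, 15.3%. The 13 AsiSI controls sit between 16.4% and 28.5%, all above the dashed line, and the Cas9 libraries sit between 14.1% and 20.6%.

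The promoter share did not pass the test for CK-666 or NU7441, and the experiments with 2 pairs could not be tested. With CK-666 and the AsiSI bait the share ran from 17% through a median of 22.1% to 25%. It was lower than in the paired DMSO library in 5 of 6 pairs, at -0.17 ± 0.25 on average on the log2 scale (SD over 6 pairs, p = 0.125 and adjusted p = 0.375 over 3 comparisons by the exact 2-sided sign-flip test). With promoters of 1 kb the mean was -0.49 (exact sign-flip test, adjusted p = 0.281) and with starts of protein-coding genes only it was -0.34 (p = 0.0312, the smallest that 6 pairs allow, adjusted p = 0.0938). The exception, replicate 2, had only 10 promoter prey of 40 distal prey with CK-666. With the Cas9 bait the CK-666 shares were 17.8%, 14.7% and 20.6% against 20.3%, 14.1% and 19.4%, which left the log2 ratio at -0.02 ± 0.15 on average (SD over 3 pairs, p = 1 by the exact sign-flip test, where 0.25 is the smallest p that 3 pairs allow). The 2 baits did not differ detectably in this response (difference 0.16, exact permutation test over pairs, p = 0.357).

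With NU7441 the promoter shares were 21.4%, 13.7% and 20.3% where the DMSO libraries had 16.4%, 21.5% and 25.6%. The log2 ratio averaged -0.20 ± 0.53 (SD over 3 pairs, p = 0.75 and adjusted p = 1 by the exact sign-flip test). One library carried this value. In NU7441 replicate 2, 61 of 91 promoter prey, or 67.0%, were telomeric, and without telomeric prey and runs the mean log2 ratio was 0.12, that is, turned in direction. With promoters of 1 kb it was -0.56 and with protein-coding starts -0.57 (exact sign-flip tests, adjusted p = 0.5 and 0.75). Wiskostatin gave 22.5% (interval 19.3% to 26.1%) and 23.2% (20.4% to 26.3%) against 22.8% (21.0% to 24.7%) and 23.2% (20.3% to 26.4%). Actin R62D-NLS gave 25.7% (22.1% to 29.7%) and 25% (18.5% to 32.9%) against 28.5% (25.8% to 31.4%) and 26.8% (19% to 36.4%) with empty vector. The share was lower in both actin R62D-NLS libraries, with a log2 difference of -0.12 ± 0.03 (SD over 2 pairs), but in both of these experiments the intervals of the paired libraries overlapped, and no test was made.

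Within promoters, the prey gathered close to the start. In the AsiSI controls 29.7% ± 5.45 (SD, n = 13) of promoter prey lay within 500 bp of a start, from 21.5% to 44.4% by library, against 20.9% of eligible promoter bases. The mean log2 ratio was 0.50 ± 0.24 (SD, n = 13), positive in 13 of 13 libraries (exact sign-flip test, adjusted p = 0.00061). The 2 sides of the start did not differ detectably. Upstream prey made up 48.8% ± 6.14 (SD, n = 13) against 48.9% of bases, and the log2 ratio of upstream to downstream per base was -0.01 ± 0.34 (exact sign-flip test, adjusted p = 0.919). With the left-out windows and positions kept it was -0.62 (adjusted p = 0.000814 by the exact test), more prey downstream. The prey strand ran along the gene in 48.1% ± 6.89 (SD, n = 13) of cases, which did not differ detectably from 50% (exact sign-flip test, adjusted p = 0.488). Libraries varied widely here, from 29.3% to 54.1%. In the 6 DMSO libraries of the CK-666 experiment alone the share minus 50% was -6.07 percentage points (exact sign-flip test, adjusted p = 0.0391), and with the windows and positions kept the 13 libraries lay 4.78 points above it (adjusted p = 0.0949).

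Per base, prey were densest in CpG-rich promoters, although most promoter prey lay in the other classes. Promoters were classed by the GC content and the CpG frequency of the sequence around the start, and CpG-rich ones made up 18.5% of eligible promoter bases, intermediate ones 34.6% and CpG-poor ones 47.0%. In the AsiSI controls 30.2% ± 7.51 (SD, n = 13) of promoter prey fell in CpG-rich promoters, from 18.2% to 43.1%. The mean log2 ratio was 0.68 ± 0.38 (SD, n = 13), positive in 12 of 13 libraries (exact sign-flip test, p = 0.000488, adjusted p = 0.000814). With the windows and positions kept that the rule leaves out, the mean log2 ratio was 0.31 (exact sign-flip test, adjusted p = 0.225), so this call holds only for prey outside them. It was 0.33 with protein-coding starts (adjusted p = 0.00977) and 0.43 without overlaps of 6 nt or more (adjusted p = 0.0488, exact tests). Relative to the density over all eligible bases, CpG-rich promoters received 2.57-fold ± 0.810 (SD, n = 13) as many prey per base, intermediate promoters 1.49-fold ± 0.267 and CpG-poor promoters 1.2-fold ± 0.142. In the 3 Cas9 DMSO libraries these densities were 1.72-fold ± 0.312 (SD, n = 3), 1.21-fold ± 0.200 and 0.924-fold ± 0.205.

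The density was highest where a CpG-rich class and a short distance met. Pooled over the AsiSI controls, 292 prey lay within 500 bp of the start of a CpG-rich promoter, where an even spread over the eligible genome would have placed 62.9, a density of 4.64-fold (Poisson interval 4.13 to 5.21). From 500 bp to 3 kb the density of CpG-rich promoters was 2.00-fold (1.81 to 2.20). At CpG-poor promoters it was 1.35-fold (1.16 to 1.56) within 500 bp and 1.12-fold (1.04 to 1.22) beyond. The density at CpG-rich starts was 4.69-fold (4.11 to 5.32) once telomeric prey, runs and joins with the bait past the break were left out. In the Cas9 DMSO libraries it was 2.15-fold (1.72 to 2.66) within 500 bp of a CpG-rich start, and a separate high value of 4.07-fold at 2000 to 1750 bp upstream rested on 25 prey in the distance bin that holds the telomeric array of Ftl1-ps2. Local base composition moved with these values. The median GC content of the sequence around the prey was 48.2% for promoter prey and 43.9% for other distal prey with the AsiSI bait, and 44.3% of all eligible promoter bases are G or C. The part of GC content in the result was not tested.

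**Figure D2:**
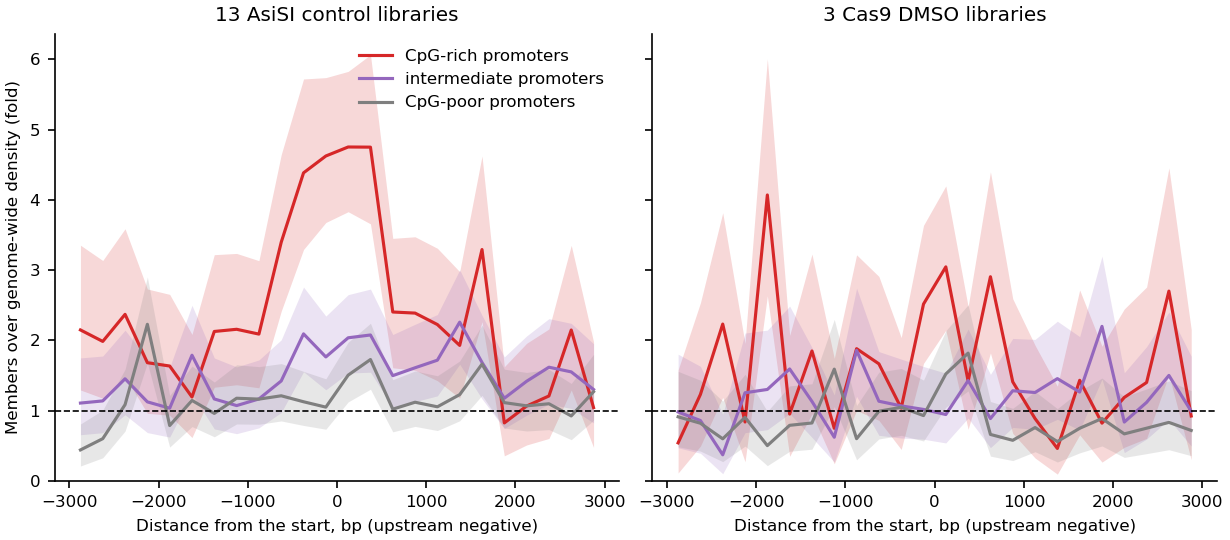
Density of promoter prey around the start (x axis, bp, upstream negative, bins of 250 bp) relative to the density over all eligible bases (y axis, fold), for CpG-rich, intermediate and CpG-poor promoters, pooled over the AsiSI controls (left) and the Cas9 DMSO libraries (right). Shading gives the Poisson interval. CpG-rich promoters of the AsiSI controls stand between 4.38-fold and 4.75-fold in the 4 bins within 500 bp of the start, and CpG-poor promoters lie between 0.44-fold and 2.23-fold over all bins, with the intervals of several bins leaving out 1. The bin with 2.23-fold, 2250 to 2000 bp upstream, held 55 prey. It stood at 1.10-fold with 22 prey once telomeric prey, runs and joins past the break were left out.

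Prey were sorted by what they were made of. A prey was called telomeric when its part of the read held at least 3 telomeric units, and a run when at least 90% of its bases were purines or at least 90% pyrimidines. A join was called past the break when the bait before any overlap reached more than 10 bp beyond the break. By these terms, taken in this order, 102 of 3510 AsiSI promoter prey were telomeric, 295 were runs and 436 were past the break, which left 2677 or 76.3%. Of 2467 Cas9 promoter prey, 447 were telomeric, 17 were runs and 218 were past the break, which left 1785 or 72.4%. Counted the same way, other distal prey of the AsiSI libraries were telomeric in 7.59%, runs in 11% and past the break in 7.53%, where promoter prey had 2.91%, 8.40% and 12.4%. In the Cas9 libraries other distal prey had 32.7%, 0.838% and 4.73%, and promoter prey 18.1%, 0.689% and 8.84%. These pooled shares were not tested.

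Telomeric prey were a matter of few libraries. They made up at most 6.25% of promoter prey in 29 of 32 libraries, and 42.8%, 55.7% and 67.0% in the DMSO and the CK-666 library of Cas9 replicate 2 and in NU7441 replicate 2. In these libraries the other distal prey were telomeric in 62%, 75.6% and 80.1%. Runs made up 10.9% ± 11 (SD, n = 13) of promoter prey in the AsiSI controls, from 2.34% to 31.4%, and at most 2.30% in the Cas9 libraries. They were 7 of the 10 promoter prey of CK-666 replicate 2. Joins with the bait past the break occurred with both baits, in 15.3% of AsiSI and 9.20% of Cas9 promoter prey. They were most common in the CK-666 experiment with the AsiSI bait. There they averaged 25.5% with DMSO and 31.7% with CK-666 (n = 6 each). The DMSO libraries ran from 12.1% to 33.2% and the CK-666 libraries from 15.4% to 39.4%. No other AsiSI library held more than 14.1%, and no Cas9 library more than 20.98%. The AsiSI CK-666 experiment had sequencing runs of its own, so experiment and run cannot be told apart. Among the joins past the break the median bait end lay 30 bp past it.

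**Figure D3:**
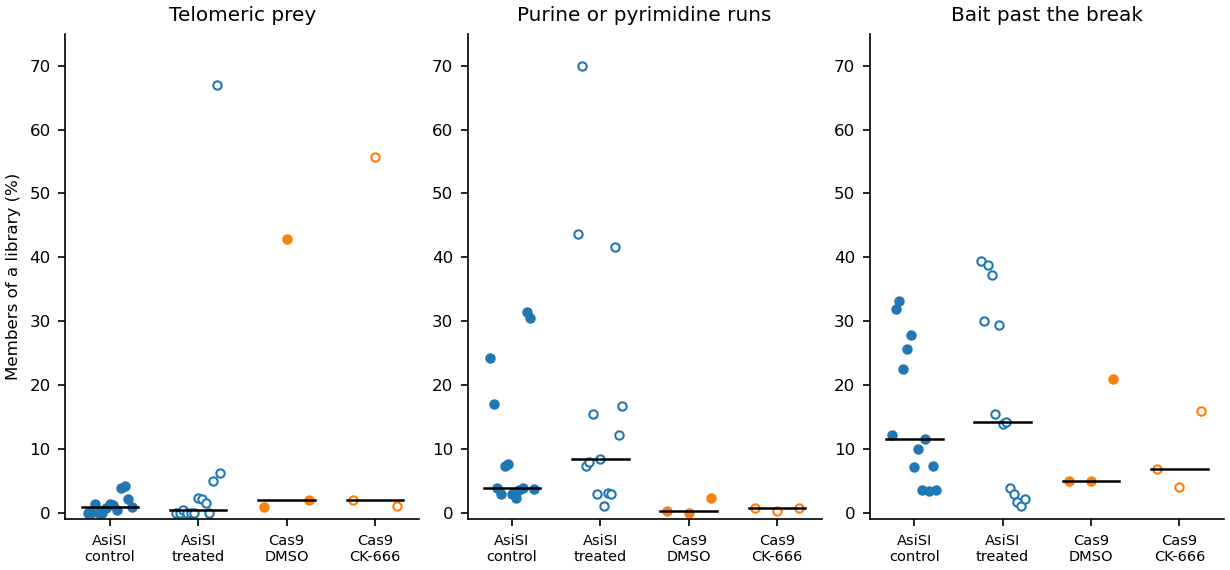
Share of promoter prey in each library (percent) that was telomeric (left), a purine or pyrimidine run (middle) or joined with the bait past the break (right), with each kind counted on its own. Blue marks AsiSI and orange Cas9 libraries, filled points controls, open points treated libraries and black lines medians. The 3 libraries with many telomeric prey stand at 42.8%, 55.7% and 67.0%.

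Promoter prey held more long overlaps and fewer insertions than other distal prey. In the AsiSI controls 26.1% ± 19.3 (SD, n = 13) of promoter prey were joined through an overlap of 6 nt or more, against 18.4% ± 14.8 of other distal prey of the same libraries. The difference of 7.61 percentage points ± 9.06 (SD) was positive in 11 of 13 libraries (exact sign-flip test, adjusted p = 0.0249 over 4 classes). Insertions made up 18% ± 10.7 against 23.2% ± 12, a difference of -5.26 points ± 5.74 that was negative in 12 of 13 libraries (exact sign-flip test, adjusted p = 0.00293). Overlaps of 1 to 5 nt made up 41.2% ± 14.3 against 42.4% ± 14.7 and blunt joins 14.8% ± 5.59 against 15.9% ± 4.32, neither of which passed the test (adjusted p = 0.65 and 0.489, exact sign-flip tests, n = 13).

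Each difference lost its call when some of the kinds of prey above were left out, but not always its size. Without joins past the break the excess of long overlaps was 3.95 points (exact sign-flip test, adjusted p = 0.25), and without telomeric prey and runs it was 6.34 points (adjusted p = 0.214). Without telomeric prey and runs the difference in insertions was -1.57 points (exact sign-flip test, adjusted p = 0.214). With the left-out windows and positions kept, the differences were -0.81 points for long overlaps and 0.19 points for insertions (exact sign-flip tests, both adjusted p = 0.945). Of the long overlaps of AsiSI promoter prey, 392 of 822 had the bait past the break, and of those of Cas9 promoter prey 192 of 345. Inserted stretches had a median of 14 nt in front of runs and 3 nt in front of the other prey.

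**Figure D4:**
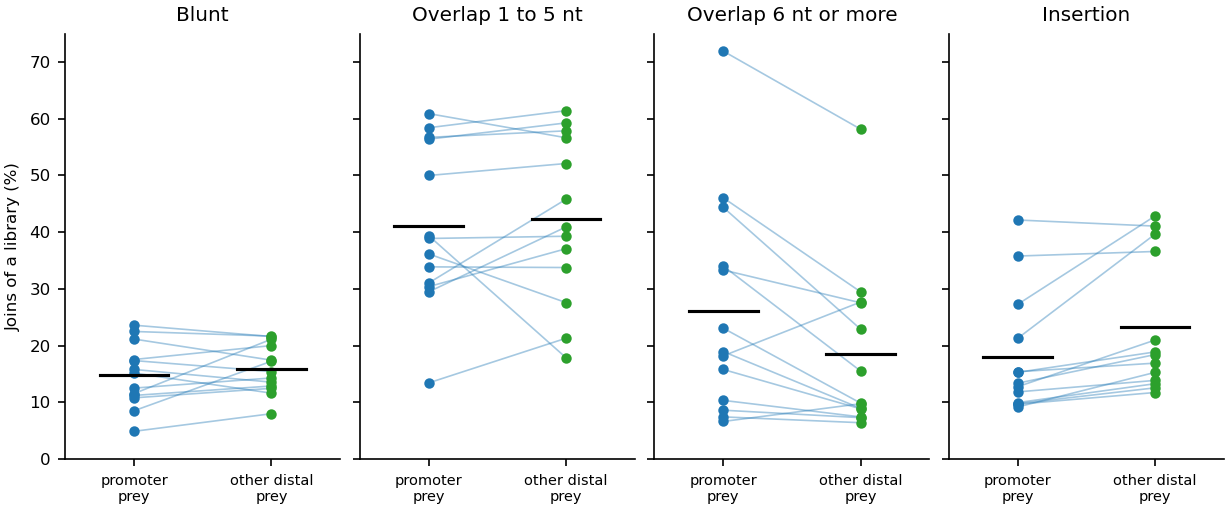
Share of blunt joins, short overlaps, long overlaps and insertions (percent of joins) among promoter prey and other distal prey of the 13 AsiSI control libraries. Each line joins the 2 values of a library and black bars are means. Long overlaps average 26.1% against 18.4%, and insertions 18% against 23.2%.

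Most promoters were joined in a single library. The prey fell nearest to 4148 genes, of which 3584 or 86.4% were joined in 1 library, 403 in 2, 119 in 3 or 4 and 42 in 5 or more. Of 5277 distinct positions, 191 occurred in more than 1 library and 98 with both baits. By the annotation, 62% of the nearest starts belonged to protein-coding genes, 10.9% to lincRNAs and 10.1% to processed pseudogenes. Promoters of protein-coding genes held 222 of the 375 Mb of promoters and received 16.6 prey per Mb, near the 15.8 per Mb of all genes. The share of promoter bases was not determined for the other classes. Of all promoter prey, 204 shared the bait end, the overlap and both prey ends with a join of another library, and for 153 of these the libraries came from more than 1 run.

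The promoters joined in the most libraries were largely of the kinds shown above. Ftl1-ps2, a ferritin pseudogene, had 90 promoter prey in 10 libraries, 89 of them telomeric. They numbered 26 in the DMSO library and 46 in the CK-666 library of Cas9 replicate 2 and 10 in NU7441 replicate 2, and no other library had more than 2. Gm47882 (60 prey, 58 telomeric), Pxylp1 (41, all telomeric), which encodes a phosphatase of glycosaminoglycan synthesis, Gm38064 (40, all telomeric), Gm19193 (38, all telomeric) and the miRNA gene Mir6351 (36, all telomeric) followed. Pyrimidine runs led at Gm33424, with 54 prey in 13 AsiSI and 0 Cas9 libraries. There were 10, 13 and 4 in the DMSO and 8, 5 and 3 in the NU7441 libraries of the NU7441 experiment, and at most 4 in any other library. Gm24539, a snoRNA gene, had 11 in 9 AsiSI libraries.

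Single positions with an overlap recurred across both baits. Position 124535679 on chromosome 8, 470 bp downstream of a start of Cog2, which encodes a subunit of a Golgi tethering complex, was joined 12 times in 10 libraries with an overlap of 12 nt. In all, Cog2 had 6 prey with the AsiSI and 9 with the Cas9 bait, the latter in all 6 Cas9 libraries. Epha2, an ephrin receptor, had 9 prey in 9 libraries, 8 of them at position 141306409 of chromosome 4, and Gm29202 had 9 at a single position in 9 libraries, all past the break. The pseudogenes Gm11841 and Gm11839 were each joined at 1 position, 1621 bp downstream of the start, in 11 and 9 libraries with the same 9 nt, and none of these joins was past the break.

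At some recurrent promoters most prey were of no such kind. The lincRNA gene Gm26917 had 32 prey in 18 libraries, more libraries than any other gene, with 21 from AsiSI and 11 from Cas9 cells and 1 to 4 in each. Of these, 4 were past the break, and without them it had 28 in 16 libraries. Together with its neighbours Gm42418, AY036118 and the rRNA gene CT010467.1 it lies in a stretch of chromosome 17 from 39843402 to 39848774 that received 59 promoter prey at 55 positions in 19 libraries, 42 of them with the AsiSI and 17 with the Cas9 bait. Reads from the many ribosomal DNA copies of the genome can map to this stretch, so their origin among the copies cannot be told apart. Of its prey, 9 lay within 50 bp of a stretch that differs from the AsiSI motif by a single base. Over all eligible promoter bases 0.466% lie that close to such a site. The share within this stretch and the split of the 9 prey between baits were not determined, and whether such sites were cut was not tested. Of the sites near these 9 prey, 2 that lie near prey assigned to Gm26917 carry the substitution A4G, counted from 1 at the 5′ end of the motif. They are shown with the motif's place in capitals, at chr17:39843605-39843634 with 3 prey and at chr17:39843771-39843800 with 2.
Gm26917 site, 3 prey: gctggtgctgaGCGGTCGCggctggccttg
Gm26917 site, 2 prey: agaccccccgcGCGGTCGCccgcgtgttgg

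AC147251.1, a lincRNA gene on chromosome 18, had 34 prey in 11 libraries, all in repeat-masked sequence, and Ank1, which encodes an ankyrin of the membrane skeleton, had 19 in 10 libraries, of which 16 were repeat-masked.

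Sc5d, which encodes a desaturase of cholesterol synthesis, had 25 prey in 10 AsiSI libraries and 0 in Cas9 libraries. They lay 559 to 2881 bp from a position on chromosome 9 around which the rule leaves out all junctions within 500 bp. Around the other 3 positions left out, 5, 8 and 11 prey lay within 5 kb, at Jmy, at Txnrd1 with its neighbours, and at Ralb with its neighbour. All of them came from AsiSI libraries. The 0 among 2467 Cas9 prey, pooled over libraries, allows a share of up to 0.122% by counting error alone, without the spread between libraries. The AsiSI prey around these positions lie at the margins of clusters that the rule leaves out. The difference between baits was not tested here.

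Away from these positions, few prey lay at sites that differ from the AsiSI motif by a single base. Within 50 bp of such a site lay 1.10% ± 0.980 (SD, n = 13) of promoter prey in the AsiSI controls and 0.623%, 1.72% and 0% in the Cas9 DMSO libraries, while 0.466% of eligible promoter bases lie that close. The 2 baits differed by 0.32 percentage points (exact permutation test, 2-sided, p = 0.648), which was within the spread. This value holds only for prey outside the windows and positions that the rule leaves out. With these kept, the AsiSI controls lay 8.70 points above the Cas9 DMSO libraries (exact permutation test, adjusted p = 0.0107).

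The promoters of the fixed gene lists were joined as follows, given as counts without a test. Of 19855 protein-coding genes with a start in eligible sequence, 13.6% were joined at least 1 time, with 16.6 prey per Mb of their promoters. Of 29 genes of extracellular matrix and cytoskeleton 8 were joined (27.6%), with 37.5 prey per Mb, and of 72 ribosomal protein genes 13 (18.1%, 33.8 per Mb). Immediate early genes had 4 of 22 joined (18.2%, 22.1 per Mb) and p53 targets 3 of 22 (13.6%, 13.6 per Mb). Histone genes had 3 of 68 joined (4.41%, 12.9 per Mb). Of 1170 olfactory and vomeronasal receptor genes 52 were joined (4.44%), with 6.36 prey per Mb, and of 110 keratin and keratin-associated genes 5 (4.55%, 7.0 per Mb). Without telomeric prey, runs and joins past the break the matrix and cytoskeleton genes had 34.8 prey per Mb, ribosomal protein genes 28.5, receptor genes 5.16 and all protein-coding genes 13.1. The lists are short and were chosen with earlier results of these data known, and some rest on 3 or 4 joined genes.

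The genes named for each list had few prey each. Actb, which encodes cytoplasmic actin, and Tpm1, a tropomyosin, had 3 prey in 3 libraries each, 2 with the AsiSI and 1 with the Cas9 bait. Rps19 had 4 in 2 libraries and Rps18 had 2 in 2. Dusp1, a phosphatase that turns off MAP kinases, and the transcription factor Egr2 had 1 each, as did the p53 targets Cdkn1a, the inhibitor of cyclin-dependent kinases, and Pmaip1, which promotes cell death. The histone genes Hist1h1a and Hist1h2af and the keratin genes Krt27 and Krt90 also had 1 each. The leading receptor genes were joined through repeats, with 4 runs at 1 position upstream of Olfr69 and 4 telomeric prey near Olfr767.

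Among prey that were neither telomeric, runs nor past the break, 3146 of 3536 genes (89.0%) were joined in 1 library, 310 in 2, 67 in 3 or 4 and 13 in 5 or more. A few genes of these were chosen for mention after their values were seen, because they were joined at several positions. Amotl2, which encodes a protein of cell junctions, had 9 prey at 8 positions in 5 libraries, with a median place 26 bp downstream of the start of a CpG-rich promoter. Lmna, which encodes the nuclear lamins A and C, had 6 at 6 positions in 4 libraries, Hsp90ab1, a constitutive chaperone, 5 at 5 positions in 4 libraries, and Tubb5, a tubulin, 4 at 4 positions in 4 libraries. Each of these was joined with both baits.

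The chromosomes did not share the prey evenly. With the AsiSI bait and with telomeric prey, runs and joins past the break left out, chromosome 17 received 278 promoter prey, 2.28-fold its share of promoter bases (Poisson interval 2.02 to 2.56). Chromosome 11 followed with 1.86-fold (1.66 to 2.08), chromosome 15 with 1.67-fold (1.42 to 1.94) and chromosome 18 with 1.56-fold (1.29 to 1.87). The lowest were chromosome Y with 0.118-fold (0.0508 to 0.232), X with 0.458-fold (0.346 to 0.594), 13 with 0.463-fold (0.352 to 0.599) and 14 with 0.489-fold (0.375 to 0.627). With the Cas9 bait chromosome 17 had 1.33-fold (1.09 to 1.60), 11 had 1.59-fold (1.36 to 1.85), 18 had 0.799-fold (0.571 to 1.09) and 14 had 0.947-fold (0.751 to 1.18), while 13 and X were again low at 0.491-fold and 0.527-fold. In the 11 AsiSI controls with at least 30 such prey, the fold of chromosome 17 was 2.06 ± 0.565 (SD), from 1.08 to 2.85, and lay above 1 in 11 of 11. In the 3 Cas9 DMSO libraries it was 0.915 ± 0.0458. The counts of chromosome 17 include the stretch described above to which reads from ribosomal DNA copies can map. Before telomeric prey, runs and joins past the break were left out, it held 42 AsiSI and 17 Cas9 promoter prey. The fold of chromosome 17 without this stretch was not computed. Other distal prey were also high on chromosomes 17 and 11, with 1.96-fold and 1.52-fold for the AsiSI bait and 1.26-fold and 1.42-fold for the Cas9 bait. They were also low on X, with 0.473-fold (AsiSI) and 0.677-fold (Cas9). On some chromosomes they lay nearer to an even spread than promoter prey. Chromosome 18 had 1.09-fold with the AsiSI bait, and chromosome 13 had 0.790-fold (AsiSI) and 0.859-fold (Cas9). Chromosome copy number in these cells and the mapping of reads to X and Y can move such values and were not measured here.

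**Figure D5:**
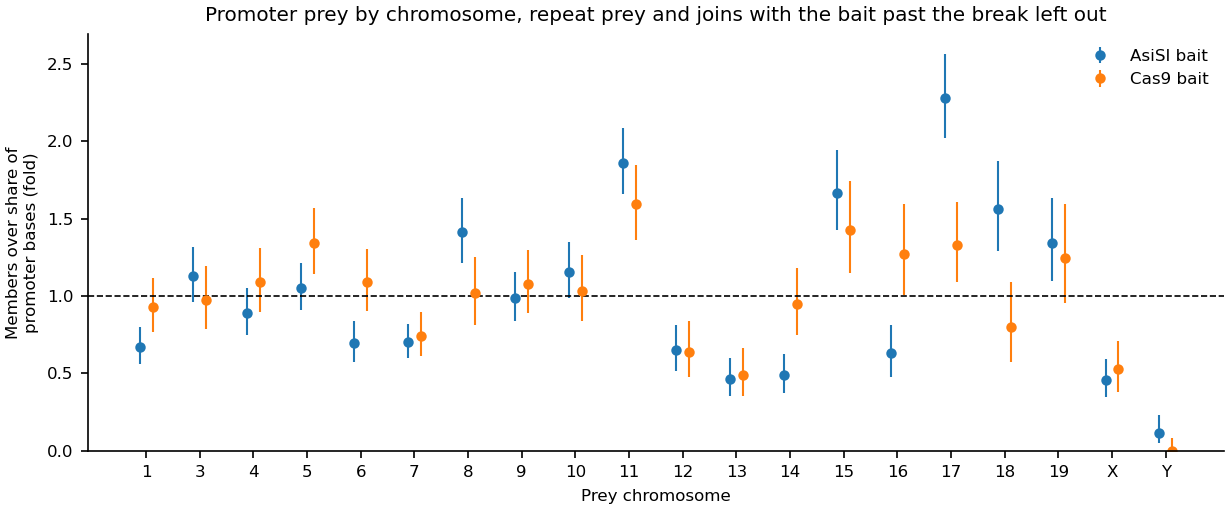
Promoter prey on each chromosome relative to its share of eligible promoter bases (fold, with Poisson intervals), for the AsiSI bait (blue) and the Cas9 bait (orange), with telomeric prey, runs and joins past the break left out. The dashed line marks an even spread. Chromosome 17 stands at 2.28 with the AsiSI bait and 1.33 with the Cas9 bait, and chromosomes 13 and X lie near 0.5 with both. The values of chromosome 17 include the stretch to which reads from ribosomal DNA copies can map.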

How the data were processed

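HTGTS libraries were prepared by the authors by sonication, amplification from the bait and MiSeq sequencing. Reads were aligned by the authors to mm10 and filtered with the HTGTS pipeline, and the deposited tables list 1 junction per line, with genome positions, strands and read positions in their own units, without pooling or normalization. The 12 Hi-C samples were not analysed here. Starts came from GENCODE vM21, motifs from the study's list of 1109, and eligible bases from GRCm38. Overlap is the number of read bases shared by bait and prey. Ratios within promoters used a pseudocount of 0.5. Groups came from the labels, and treated libraries were paired with controls by replicate number, and the libraries of each pair share a sequencing run. Deviations of log2 shares in windows of 1000000 bp correlated within pairs at -0.0017 to 0.601 for CK-666, 0.197 to 0.779 for Cas9, 0.276 to 0.701 for NU7441, 0.00979 for wiskostatin and 0.452 for actin R62D. The study calls the replicates biological, but the labels do not say whether they are separate cultures, so p-values measure only the spread between these libraries. Exact sign-flip tests were run over libraries or pairs and exact permutation tests between baits, 2-sided, with Benjamini-Hochberg adjustment within each family and a threshold of 0.05. The tests were tried on simulated data. Members were given to the gene with the nearest start. Named were the 15 genes joined in the most libraries, the 10 with the most AsiSI and the 5 with the most Cas9 junctions and the 2 leading genes of each list. Members and lists were chosen with earlier results of these data known. Amplification copies with differing ends would be counted as separate joins. Analyses used Python 3.11.15, numpy 2.4.6, pandas 2.3.3, scipy 1.17.1 and matplotlib 3.10.9. Some prey sequences are not reported here.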

Additional observations from a re-analysis of the deposited data

Results flagged for a closer look

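In groups of 6 libraries, 28 sets of values were searched for a library far from the other 5, and chance marks about 1 in 20. With DMSO in the CK-666 experiment, replicate 5 had 13.4% of promoter prey joined through an overlap of 1 to 5 nt, where the next lowest library had 30.4%. With CK-666, replicate 2 had a promoter share of 33.3% after telomeric prey, runs and joins past the break were left out, which rests on 3 prey, where the next highest had 23.4%. The same library had 0% long overlaps among its 10 promoter prey, where the next lowest had 38.2%. With CK-666, replicate 3 had 0.431% telomeric promoter prey, a single prey, and the other 5 had 0%.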

How the results depend on the processing

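Of the values recomputed with other settings, 254 under settings chosen at the outset and 35 under later ones kept their direction and their side of the threshold or moved by less than 1 SD. The promoter share over the genome share and the gathering within 500 bp of the start in the AsiSI controls kept both under every alternative run, but not their size. The first ran from 0.48 without long overlaps to 1.27 with the left-out windows and positions kept, and the second from 0.26 within 1 kb to 0.78 with these kept. The difference between baits no longer passed the test with promoters of 1 kb (-0.49, exact permutation test, adjusted p = 0.075), protein-coding starts (-0.54), prey over 100 kb from a motif (-0.35), long overlaps left out (-0.36), telomeric prey and runs left out (-0.29) or these and joins past the break left out (-0.28). With all interchromosomal junctions as denominator it reversed to 1.88 (exact permutation test, adjusted p = 0.00357), where the AsiSI denominator holds the joins to AsiSI sites. The cause of the other changes was not tested. The last 2 kinds of alternative, and joins past the break alone, were added after seeing the data.

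With the windows and positions of the rule kept, the CpG-rich ratio was 0.31 (no longer past the test), upstream against downstream -0.62 (exact sign-flip test, adjusted p = 0.000814), the strand difference 4.78 points, the Cas9 DMSO ratio 0.64, the difference near single-mismatch sites 8.70 points (adjusted p = 0.0107), and blunt joins 0.21, short overlaps 0.40, long overlaps -0.81 and insertions 0.19 points. Long overlaps lost the call without repeats (6.34 points), without joins past the break (3.95), without both (2.70) and in the 6 DMSO libraries of the CK-666 experiment alone (11.1). Insertions lost it without repeats (-1.57), without both (-1.25) and in those 6 libraries (-8.94), where the strand difference passed it (-6.07 points, exact sign-flip test, adjusted p = 0.0391).

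Values that were near 0 and uncalled changed sign. Upstream against downstream was 0.0098 with protein-coding starts, 0.035 without long overlaps and 0.0047 in the 6 libraries. Blunt joins differed by 0.62 points with protein-coding starts. Short overlaps differed by 0.088 points over 100 kb from a motif, 1.39 without joins past the break and 0.064 in the 6 libraries. Prey near single-mismatch sites differed by -0.0044 points without long overlaps and by -0.059 points within 500 bp. CK-666 with the Cas9 bait gave 0.0026 without prey near single-mismatch sites, 0.0080 over all interchromosomal junctions, 0.044 without repeats and 0.046 without repeats and joins past the break. CK-666 with the AsiSI bait gave 0.056 over all interchromosomal junctions. NU7441 gave 0.12 without repeats and 0.12 without repeats and joins past the break.

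The 2-pair experiments moved by more than their SD. Wiskostatin gave 0.0085 with 1 kb, 0.0054 with protein-coding starts, 0.0100 over 100 kb from a motif, -0.028 with each position counted 1 time, -0.033 without prey near single-mismatch sites, -0.089 with the windows kept, -0.061 without long overlaps, -0.11 over all interchromosomal junctions, -0.055 without joins past the break and -0.052 without these and repeats. Actin R62D-NLS gave -0.063 (1 kb), -0.22 (protein-coding), -0.041 (windows kept), -0.049 (long overlaps left out), -0.36 (all interchromosomal), -0.058 and -0.068 (without joins past the break, and without these and repeats).

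Leaving out 1 library at a time gave ranges of -0.51 to -0.25 for the difference between baits, -0.051 to 0.037 for upstream against downstream, -0.072 to 0.79 points near single-mismatch sites, -0.26 to -0.11 for CK-666, -0.067 to 0.070 for CK-666 in Cas9 libraries, -0.49 to 0.022 when NU7441 was compared, 0.11 to 0.37 for the Cas9 DMSO ratio, 6.46 to 9.04 points for long overlaps, -0.0148 to -8.52e-05 for wiskostatin and -0.15 to -0.10 for actin R62D-NLS. NU7441 turned sign without the pair that holds replicate 2. Without the pairing by replicate number (no replicate block), the exact permutation p was 0.106 for CK-666 with the AsiSI bait at the same -0.17, 1 for the Cas9 bait and 0.5 for NU7441, so that no call changed. Depth limits single libraries most, since promoter prey number 10 to 571.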
